A study of Mus musculus with 12 samples.

Results

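The unfolded protein response and the integrated stress response were followed through 32 genes, listed by their known roles. All 32 were rows of both count tables, out of 26728 gene names present in both, and all 32 passed the filter on low counts in every fit. By role they were 5 stress sensors and transcription factors, 14 chaperones and folding enzymes, 4 factors of degradation and 9 targets of the transcription factor ATF4. The 18 genes of folding and degradation, which ATF6 and XBP1 are known to induce, form the endoplasmic reticulum branch, and the ATF4 targets form the other branch.

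Secreted and membrane proteins fold in the endoplasmic reticulum, and a rise in unfolded protein there activates the sensors IRE1 (gene Ern1), PERK (Eif2ak3) and ATF6. IRE1 splices the mRNA of Xbp1 into the form that encodes an active transcription factor, ATF6 is cleaved to release one, and both induce chaperones and degradation factors. PERK and other kinases phosphorylate the translation factor eIF2, which slows protein synthesis and favours translation of Atf4, and ATF4 then induces genes of amino acid supply, tRNA charging and, under lasting stress, cell death. In vascular smooth muscle, the PERK and ATF4 arm is known from work on calcification. Gene counts hold neither the splicing of Xbp1 nor any protein, cleavage or phosphorylation.

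RNA was sequenced from primary vascular smooth muscle cells (VSMC) of the mouse aorta, with 3 libraries in each of 4 groups. The groups were knockout cells (KO, labelled NR4A3KO, treatment label β-GP) at day 14, wild-type cells (WT, treatment label none) at day 14, and KO and WT cells with the same labels at day 1. NR4A3 is a nuclear receptor of the NR4A family, and β-GP, beta-glycerophosphate, is a phosphate donor used to drive mineral deposition; the growth protocol gives it for the medium of every group, so what the treatment label separates is not clear. The labels name no separate animals or cultures and do not say which part of the gene was removed, so a p-value here covers library-to-library spread, possibly technical only.

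Libraries held 14368902 to 18795761 counts in KO and 13847020 to 19517852 in WT at day 14, and 17141784 to 20089520 in KO and 24927912 to 30102958 in WT at day 1. The members were counted between 132 times (Sdf2l1) and 33015 times (Hspa5) per library at day 14 and between 221 and 49421 times at day 1. Levels are given in CPM, the count scaled to the size of its library after TMM scaling over the 12 libraries, and are compared between libraries but not between genes, since no length enters them. Nr4a3 was lower in the libraries labelled KO on both days. Its mean at day 14 was 49.6 ± 13.6 CPM in KO against 237 ± 19.6 CPM in WT (SD of 3 libraries, edgeR adjusted p = 2.60e-05), and its mean at day 1 was 2.08 ± 0.235 CPM in KO against 4.25 ± 0.385 CPM in WT (adjusted p = 8.56e-04). Smooth muscle markers summed to 3717 to 4200 CPM in KO and 2454 to 3341 CPM in WT at day 14. At day 1 the sums were 2551 to 2683 CPM in KO and 2104 to 2125 CPM in WT at day 1, with Myocd at 0 in WT at day 1. Of 7 smooth muscle markers tested, 3 were higher and 3 lower in KO at day 14, and 5 higher and 1 lower at day 1 (edgeR adjusted p below 0.05). Of all genes tested, 22.7% were higher and 23.7% lower at day 14, and 30.6% higher and 30.2% lower at day 1. Acta2, Cald1 and Des made up most of each sum. Of the 10 smooth muscle markers, 8 passed the filter on low counts in the fit of 12 libraries. Tagln and Myocd did not. Myh11 had group means of 0.09 to 0.57 CPM and Cnn1 of 0.26 to 1.9 CPM. Adventitial fibroblast markers summed to 692 to 773 CPM in KO (Lum at 0) and 510 to 699 CPM in WT at day 14, and to 246 to 368 CPM in KO (Dpt at 0) and 579 to 588 CPM in WT at day 1. The sums of endothelial markers (6 of 8 in the table) stayed between 4.62 and 16.1 CPM and those of macrophage markers between 50.4 and 95.9 CPM in all libraries. Cd68 and Cd14 made up most of the macrophage sums. Tyrobp was at 0 in both groups of day 14, Adgre1 in WT at day 14, and Tie1 and Ptprc in WT at day 1. Of the tested fibroblast markers, 4 of 7 were higher and 2 lower in KO at day 14, and 1 of 8 higher and 7 lower at day 1. Mitochondrial genes took 4.41% to 4.79% of counts in KO and 3.26% to 3.42% in WT at day 14, without overlap, and 3.66% to 4.70% in KO and 4.25% to 4.50% in WT at day 1. The part of other cells and of the mitochondrial share in the results below was not tested.

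WT replicate 1 of day 14 stood apart from the other WT libraries of that day over the genes at large. The mean chi-square per gene against counting error was 36 and 51 for its pairs with replicates 2 and 3, and 9.2 between those. Pairs within the other groups gave 2.9 to 19.55, the highest between KO replicates 2 and 3 of day 1. All 9 ATF4 targets were higher in it than in both others (1.10 to 3.16 times their mean, median 1.67). Of 14 chaperones 5 were higher and 6 lower than in both, of 5 sensors and transcription factors 3 and 2, and of 4 degradation factors 1 and 3. How many of all genes were higher than in both was not counted. Results of KO against WT at day 14 are also given without WT replicate 1 where that changed a member's call or moved a called value by over 1.5 times. The same is done for several members with no call. For the other contrasts that use this library, only some such values are given. Over all 32 members, KO at day 1 was the group closest to WT at day 14. The median absolute log2 difference between the means of this pair was 0.23, the other 5 pairs gave 0.26 to 0.59, and libraries of 1 group gave 0.030 to 0.27. Within the branches another pair was slightly closer. For folding and degradation, WT at day 14 and WT at day 1 gave 0.204 against 0.210 for this pair, and for the ATF4 targets KO at day 14 and WT at day 14 gave 0.340 against 0.358. Over 13579 genes the same measure was 0.18 for this pair, against 0.37 to 0.41 elsewhere. Each day has a table of its own, which leaves a difference between days and one between tables impossible to tell apart.

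Some promoters of the members carry known elements of the branches, and a few are printed to show these elements. The calls below do not follow the elements gene by gene. RefSeq promoters (build GRCm38.p6, matched by symbol, 250 bases before to 50 after the start) were given for 29 of the 32 members, all but Atf6, Manf and Hyou1. The counts themselves were made on mm9, so these positions are not those of the counted reads. The endoplasmic reticulum stress element ERSE was searched on both strands as CCAAT, 9 bases of any kind and CCACG. It was found in 8 of 16 promoters of the endoplasmic reticulum branch, in 0 of 9 promoters of ATF4 targets and in 37 of 27025 promoters of all genes (0.137%). These were Hspa5, Hsp90b1, Calr, Canx, Creld2, Dnajc3, Pdia6 and Syvn1. The shorter ERSE-II, searched as ATTGG, 1 base and CCACG, was in Dnajb11 and Herpud1 and in 0.0444% of all promoters. The ATF4 element searched as TGATGNAA was in 4 of 9 ATF4 targets, Asns and Chac1 among them, in Herpud1 and in 4.51% of all promoters. The XBP1 element searched as TGACGTG was in 1 of 29 members, Hspa5, at 157 to 151 bases before the start, and in 2.22% of all promoters. A match describes these letters only. In the lines below, capitals mark the letters of the element, with 10 bases on either side.
Hspa5, ERSE at chr2:34772025-34772043, plus strand: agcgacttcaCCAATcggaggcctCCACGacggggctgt
Calr, ERSE at chr8:84847075-84847093, plus strand: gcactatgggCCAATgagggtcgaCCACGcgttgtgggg
Creld2, ERSE at chr15:88819520-88819538, minus strand: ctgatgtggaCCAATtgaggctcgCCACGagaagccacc
Herpud1, ERSE-II at chr8:94386377-94386387, plus strand: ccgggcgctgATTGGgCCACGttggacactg
Herpud1, ATF4 element at chr8:94386317-94386324, minus strand: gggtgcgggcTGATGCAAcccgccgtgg
Asns, ATF4 element at chr6:7693225-7693232, minus strand: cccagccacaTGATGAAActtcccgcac
Chac1, ATF4 element at chr2:119351049-119351056, minus strand: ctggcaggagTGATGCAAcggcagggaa

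The wider promoter of Hspa5, the gene of the chaperone BiP that is the classic readout of the response, is shown from 150 bases before the start to its last base before it (chr2:34771940-34772089, plus strand). The capitals mark the same ERSE, and the XBP1 element lies just outside this stretch.
Hspa5 promoter: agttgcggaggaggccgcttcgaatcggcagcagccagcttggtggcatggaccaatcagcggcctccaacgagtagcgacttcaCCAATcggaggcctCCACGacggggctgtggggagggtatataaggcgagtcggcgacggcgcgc

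The members did not move as 1 block in KO cells. At day 14, 7 of 14 chaperones and folding enzymes were higher and the stress regulators Ddit3 and Ppp1r15a lower in KO. At day 1 BiP, Ddit3 and Ppp1r15a were higher and the 5 sensors and transcription factors lower. Also lower were the 5 enzymes among the ATF4 targets, a group set apart after their values were seen. A gene was called where edgeR's quasi-likelihood test gave an adjusted p (Benjamini-Hochberg over all genes tested) below 0.05. At day 14, 9 members were higher and 4 lower in KO, so 13 of 32 were called. Of all 14902 genes tested, 46.4% were called, 22.7% higher and 23.7% lower. The groups did not overlap for 15 of the 32, and how many of all genes lay without overlap was not counted on either day. Without WT replicate 1 of day 14 the counts were 13 higher and 4 lower, with 60.7% of all genes called, and without KO replicate 3 only 2 were lower. At day 1, 10 members were higher and 14 lower in KO, so 24 of 32 were called, and 22 of the 32 did not overlap between the groups. Of all 15365 genes tested, 60.8% were called, 30.6% higher and 30.2% lower. With library size alone as the scaling, 61.7% of all calls at day 1 were higher, against 50.4%, and 13 members were higher and 10 lower. Without WT replicate 1 of day 1, 6 members were higher. The members' share of calls was under that of all genes at day 14 and over it at day 1, and neither gap was tested, so what follows turns on which members moved and which way. In bulk RNA, fewer cells of a type and less RNA per cell cannot be told apart.

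**Figure D1:**
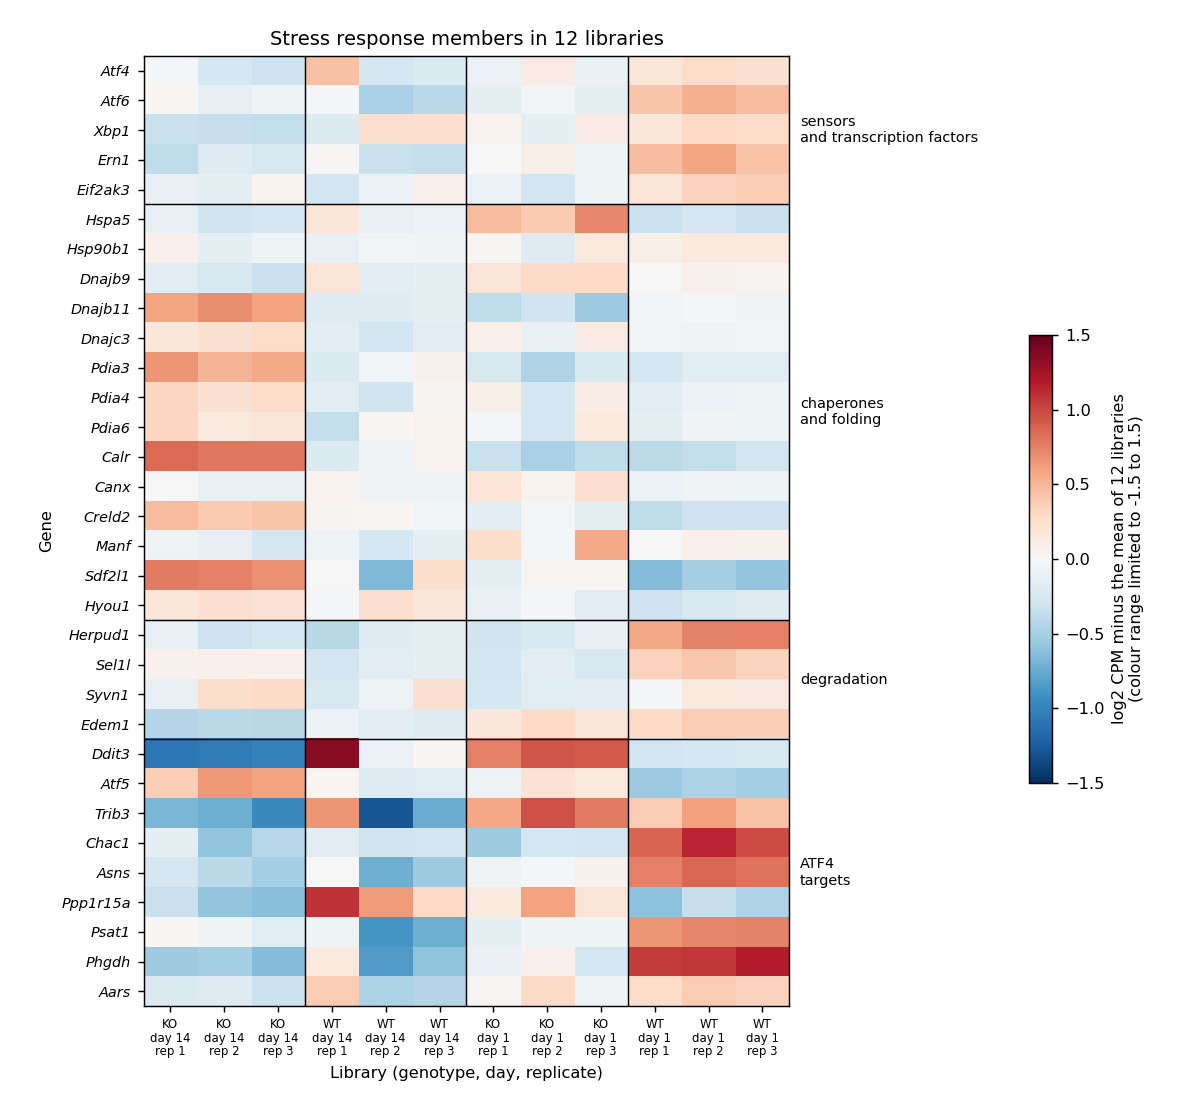
Level of each of the 32 members in each of the 12 libraries, as log2 CPM minus the gene's mean over all libraries (colour scale limited to -1.5 to 1.5), with rows grouped by role and columns by group. Dnajb11, Pdia3, Calr and Sdf2l1 are highest in KO at day 14, and Asns, Psat1, Phgdh and Chac1 in WT at day 1.

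The KO effects of the days were then compared. In the difference of the KO effects (day 14 minus day 1, 1 fit of 12 libraries), 14 members had a higher and 5 a lower KO effect at day 14, so 19 of 32 were called. Of 15973 genes, 60.1% were called, 29.5% higher and 30.5% lower, so the members' share was near that of all genes. With library size alone, which moves the median of all genes to -0.22, 37.9% of all calls were higher, against 49.2%, and 10 members were higher and 10 lower. Only 3 members, Atf5, Creld2 and Sdf2l1, were called higher in KO on both days, and 1, Xbp1, was called lower on both. Ddit3 and Ppp1r15a were lower at day 14 and higher at day 1, and Dnajb11 and Sel1l were higher at day 14 and lower at day 1. Hsp90b1, which encodes the chaperone GRP94, Manf, a secreted factor of the endoplasmic reticulum, and Pdia6, a disulphide isomerase, were called on neither day. Without KO replicate 2 of day 1, Manf (0.39, adjusted p = 1.62e-04) and Pdia6 (0.16, adjusted p = 0.0176) passed at day 1, and without KO replicate 3 Hsp90b1 did (-0.20, adjusted p = 0.00545). Pdia6 also passed at day 14 with no filter (0.29, adjusted p = 0.0236) and in the fit of 12 libraries (0.30, adjusted p = 0.0367).

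**Figure D2:**
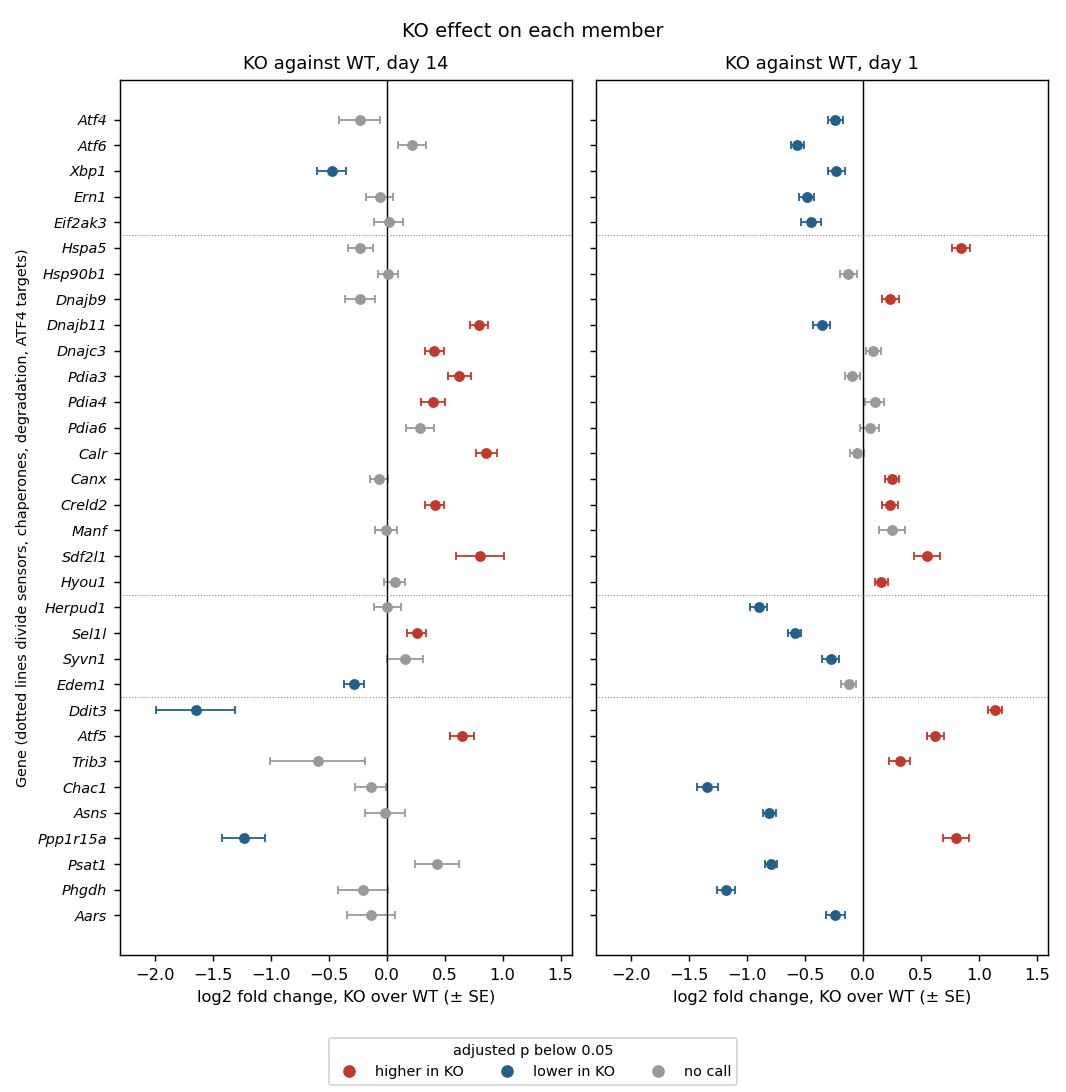
log2 fold change of each member in KO over WT at day 14 (left) and day 1 (right), with bars of 1 SE, coloured by call (edgeR, adjusted p below 0.05). Ddit3 lies at -1.65 at day 14 and at 1.14 at day 1, and the 5 sensors and transcription factors lie left of 0 at day 1.

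All 5 sensors and transcription factors were lower in KO at day 1 and 1 of the 5 at day 14. Atf6, the cleaved transcription factor of the chaperone genes, stood at 210, 190 and 197 CPM in KO and 204, 148 and 157 CPM in WT at day 14, and at 188, 201 and 189 CPM in KO and 277, 299 and 285 CPM in WT at day 1. The day 1 groups lay well apart, and those of day 14 overlapped through WT replicate 1. Atf6 fell by 0.57 ± 0.06 on the log2 scale in KO at day 1 (SE, adjusted p = 1.83e-06). At day 14 it differed by 0.22 ± 0.12 (adjusted p = 0.178), and by 0.35 without WT replicate 1 (adjusted p = 3.91e-04). Ern1 (-0.48 ± 0.06, adjusted p = 2.80e-05) and Eif2ak3 (-0.45 ± 0.09, adjusted p = 6.08e-04) were lower at day 1 too, and at day 14 they stood at -0.06 ± 0.12 and 0.02 ± 0.13 without a call. Without WT replicate 1 of day 14 both signs turned, again with no call (Ern1 0.049 and Eif2ak3 -0.090, adjusted p = 0.597 and 0.475).

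Xbp1, which encodes the factor activated by IRE1, stood at 115, 114 and 112 CPM in KO and 126, 171 and 173 CPM in WT at day 14, and at 151, 131 and 158 CPM in KO and 164, 179 and 176 CPM in WT at day 1. Every KO library lay below every WT library of its day. Xbp1 fell by 0.48 ± 0.13 at day 14 (adjusted p = 0.0131) and by 0.23 ± 0.07 at day 1 (adjusted p = 0.0132). The call was lost at day 14 without KO replicate 3 (0.0508) or WT replicate 2 (0.0506), and at day 1 without WT replicate 2 (0.0580) or 3 (0.0501). Atf4 stood at 488, 417 and 403 CPM in KO and 677, 418 and 432 CPM in WT at day 14, and at 470, 542 and 467 CPM in KO and 567, 604 and 583 CPM in WT at day 1. Its groups overlapped at day 14 (-0.23 ± 0.18, adjusted p = 0.314, and 0.0050 without WT replicate 1, adjusted p = 0.964) and not at day 1, where it fell by 0.24 ± 0.06 (adjusted p = 0.00625). The calls of Atf4 and Xbp1 at day 1 were lost with library size alone (adjusted p = 0.154 and 0.178), a scaling that moves the median of all genes at day 1 to 0.14, and in the fit of 12 libraries (0.166 and 0.0747).

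Of the 14 chaperones and folding enzymes, 7 were higher and the others not called in KO at day 14 (median log2 fold change 0.34, against -0.0015 for all genes), and 6 were higher and 1 lower at day 1 (median 0.13, against 0.01). Calr, which encodes the calcium-binding lectin chaperone calreticulin, stood at 1079, 1034 and 1041 CPM in KO and 521, 581 and 623 CPM in WT at day 14. At day 1 it stood at 475, 427 and 462 CPM in KO and 457, 470 and 494 CPM in WT. The KO libraries of day 14 were the highest of all 12, and the groups of day 1 overlapped. Calr rose by 0.86 ± 0.09 in KO at day 14 (adjusted p = 1.03e-04) and stood at -0.05 ± 0.06 at day 1 (adjusted p = 0.473), a difference between the days of 0.93 ± 0.11 (adjusted p = 2.60e-06).

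Dnajb11, a co-chaperone of BiP, stood at 124, 132 and 124 CPM in KO and 71.6, 71.6 and 73.7 CPM in WT at day 14, and at 62.6, 66.6 and 55.9 CPM in KO and 79.2, 79.9 and 78.9 CPM in WT at day 1. KO lay above WT at day 14 and below it at day 1, with no overlap on either day. It rose by 0.80 ± 0.08 at day 14 (adjusted p = 7.33e-05) and fell by 0.36 ± 0.07 at day 1 (adjusted p = 7.39e-04). Pdia3, a disulphide isomerase that works with calreticulin on glycoproteins, stood at 1167, 1045 and 1088 CPM in KO and 638, 715 and 767 CPM in WT at day 14. It rose there by 0.63 ± 0.10 (adjusted p = 8.32e-04) and stood at -0.09 ± 0.07 at day 1. Sdf2l1 was higher at day 14 too, and the remaining folding genes higher there were Creld2 (0.41 ± 0.08), Dnajc3, a co-chaperone and inhibitor of eIF2 kinases (0.41 ± 0.08), and Pdia4, a further disulphide isomerase (0.40 ± 0.10), with adjusted p of 0.00376, 0.0034 and 0.0109.

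Sdf2l1, a component of endoplasmic reticulum chaperone complexes and the member with the fewest counts, stood at 24.9, 24.6 and 23.5 CPM in KO and 14.5, 9.21 and 17.5 CPM in WT at day 14, and at 13.2, 14.7 and 14.8 CPM in KO and 9.27, 10.3 and 9.68 CPM in WT at day 1. KO lay above WT on both days without overlap. It rose by 0.80 ± 0.21 at day 14 (adjusted p = 0.0118) and by 0.55 ± 0.11 at day 1 (adjusted p = 8.64e-04). The change of its KO effect between the days was 0.27 ± 0.24 (adjusted p = 0.349).

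Hspa5 (BiP) stood at 1353, 1185 and 1230 CPM in KO and 1652, 1346 and 1377 CPM in WT at day 14, and at 2029, 1909 and 2409 CPM in KO and 1169, 1225 and 1161 CPM in WT at day 1. The KO libraries of day 1 were the 3 highest of all 12, and the groups of day 14 overlapped. Hspa5 rose by 0.84 ± 0.08 in KO at day 1 (adjusted p = 7.59e-07) and stood at -0.23 ± 0.10 at day 14 (adjusted p = 0.106, and 0.0398 with library size alone, and at -0.15 without WT replicate 1, adjusted p = 0.0764). Its KO effect was lower at day 14 than at day 1 by -1.05 ± 0.14 (adjusted p = 9.93e-06). Canx, the membrane-bound lectin chaperone calnexin, also rose at day 1 (0.25 ± 0.06, adjusted p = 0.00241). So did Creld2 (0.23 ± 0.07, adjusted p = 0.0109), Dnajb9, a BiP co-chaperone (0.24 ± 0.07, 0.0120), and Hyou1, a large chaperone related to HSP70 (0.16 ± 0.06, 0.0314). None of these last 3 passed without WT replicate 1 (adjusted p = 0.0648, 0.0625 and 0.166). Dnajb9 was also lost without WT replicate 3 (0.0508), and Hyou1 without KO replicate 1 (0.0722) or WT replicate 2 (0.104) or 3 (0.0624). At day 14 Dnajb9, Canx and Hyou1 stood at -0.23 ± 0.13, -0.07 ± 0.08 and 0.07 ± 0.09, with no call.

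**Figure D3:**
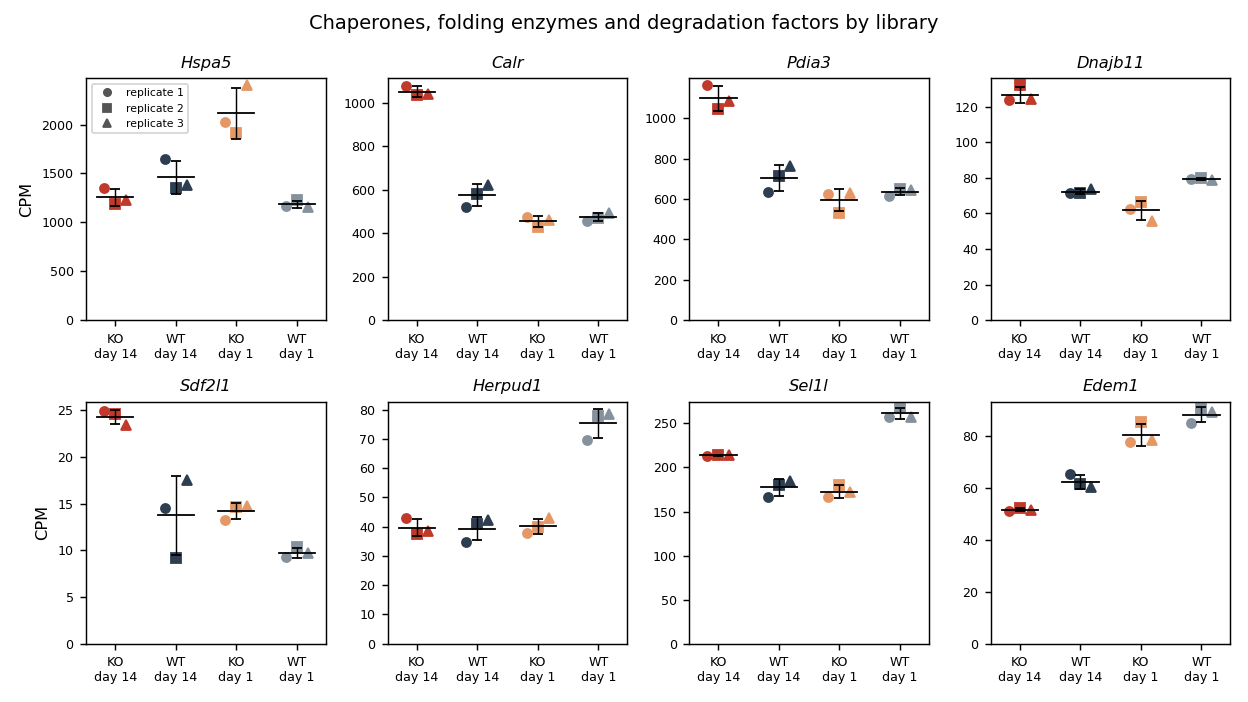
CPM of 8 folding and degradation genes in each library, by group, with the group mean and SD (n = 3) in black and a symbol shape for each replicate number. Calr, Pdia3, Dnajb11 and Sdf2l1 are highest in KO at day 14, Hspa5 in KO at day 1, and Herpud1 and Sel1l in WT at day 1.

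Of the 4 degradation factors, 3 were lower and the other not called in KO at day 1 (median log2 fold change -0.43), and 1 was higher and 1 lower at day 14 (median 0.08). Herpud1, a membrane protein of the degradation complex, stood at 42.9, 37.5 and 38.6 CPM in KO and 34.8, 40.8 and 42.1 CPM in WT at day 14, and at 37.8, 39.8 and 42.8 CPM in KO and 69.5, 77.8 and 78.5 CPM in WT at day 1. WT at day 1 stood above the 9 other libraries, which lay between 34.8 and 42.9 CPM. Herpud1 fell by 0.90 ± 0.07 in KO at day 1 (adjusted p = 3.41e-07) and stood at 0.01 ± 0.11 at day 14 (adjusted p = 0.976, and -0.095 without WT replicate 1, adjusted p = 0.391). Its promoter holds both an ERSE-II and an ATF4 element, as printed above.

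Sel1l, the adaptor of the ubiquitin ligase HRD1, stood at 213, 214 and 214 CPM in KO and 167, 180.3 and 185 CPM in WT at day 14, and at 166, 180.2 and 172 CPM in KO and 258, 269 and 257 CPM in WT at day 1. The order of the groups turned round between the days with no overlap on either. Sel1l fell by 0.59 ± 0.05 at day 1 (adjusted p = 1.01e-06) and rose by 0.26 ± 0.08 at day 14 (adjusted p = 0.0264). The day 14 call was lost without KO replicate 1 (0.0650), 2 (0.0980) or 3 (0.108), without WT replicate 2 (0.0585), with library size alone (0.0761) and with no filter (0.0641). Syvn1, which encodes HRD1, fell by 0.28 ± 0.08 at day 1 (adjusted p = 0.00634, and 0.0883 with library size alone) and stood at 0.16 ± 0.15 at day 14. Edem1, which directs misfolded glycoproteins to degradation, stood at 51.0, 52.5 and 51.7 CPM in KO and 65.3, 61.6 and 60.3 CPM in WT at day 14. It fell there by 0.28 ± 0.09 (adjusted p = 0.0238), with the groups apart, but the call was lost without KO replicate 1 (0.0860), 2 (0.0733) or 3 (0.0883) and with no filter (0.103). At day 1 it stood at -0.12 ± 0.06 (adjusted p = 0.102, and 0.0179 without KO replicate 2).

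The 9 ATF4 targets divided at day 1, with 4 higher and 5 lower in KO (median log2 fold change -0.24). At day 14, 1 was higher and 2 lower (median -0.14), and without WT replicate 1 there were 4 higher and 2 lower (median 0.16). Ddit3, which encodes the transcription factor CHOP of the late stress response, stood at 40.0, 41.2 and 42.3 CPM in KO and 217, 79.9 and 86.8 CPM in WT at day 14, and at 144, 163 and 161 CPM in KO and 69.9, 71.4 and 72.7 CPM in WT at day 1. KO was the lower group at day 14 and the higher at day 1, with no overlap on either day. Ddit3 fell by 1.65 ± 0.34 in KO at day 14 (adjusted p = 0.00398), and by 1.05 without WT replicate 1 (adjusted p = 5.42e-09). At day 1 it rose by 1.14 ± 0.06 (adjusted p = 6.52e-09). The KO effect thus differed between the days by -2.77 ± 0.37 (adjusted p = 1.35e-05), and by -2.18 without that library (adjusted p = 1.79e-13).

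Ppp1r15a, which encodes GADD34, the phosphatase subunit that reverses the phosphorylation of eIF2, stood at 53.2, 44.5 and 43.7 CPM in KO and 142, 105 and 82.7 CPM in WT at day 14. At day 1 it stood at 74.2, 102 and 76.6 CPM in KO and 44.0, 53.1 and 48.9 CPM in WT. It followed Ddit3: KO lay below WT at day 14 and above it at day 1, without overlap. Ppp1r15a fell by 1.23 ± 0.18 at day 14 (adjusted p = 7.17e-04) and rose by 0.80 ± 0.11 at day 1 (adjusted p = 4.20e-05), a difference of -2.01 ± 0.24 (adjusted p = 3.61e-06).

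Atf5, a transcription factor related to ATF4, stood at 122, 149 and 144 CPM in KO and 96.6, 82.7 and 83.5 CPM in WT at day 14, and at 90.0, 109.8 and 105 CPM in KO and 64.9, 68.0 and 65.9 CPM in WT at day 1. It was the ATF4 target that lay above WT in KO on both days, without overlap. The rises were 0.65 ± 0.11 at day 14 (adjusted p = 0.00113) and 0.63 ± 0.07 at day 1 (adjusted p = 9.70e-06), and their difference was 0.04 ± 0.14 (adjusted p = 0.802). Trib3, a pseudokinase that restrains ATF4 and AKT signalling, stood at 52.5, 50.7 and 43.0 CPM in KO and 134, 34.6 and 50.2 CPM in WT at day 14, and at 127, 165 and 145 CPM in KO and 109.9, 129 and 113 CPM in WT at day 1. The groups overlapped on both days, and at day 14 the value of WT replicate 1 was above all others. Trib3 rose by 0.32 ± 0.09 at day 1 (adjusted p = 0.00814, and 0.0551 without WT replicate 1), and in the fit of 12 libraries the same contrast gave an adjusted p of 0.433. At day 14 it stood at -0.60 ± 0.41 (adjusted p = 0.268, and 2.19e-05 with no filter), and at 0.16 without WT replicate 1 (adjusted p = 0.303).

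**Figure D4:**
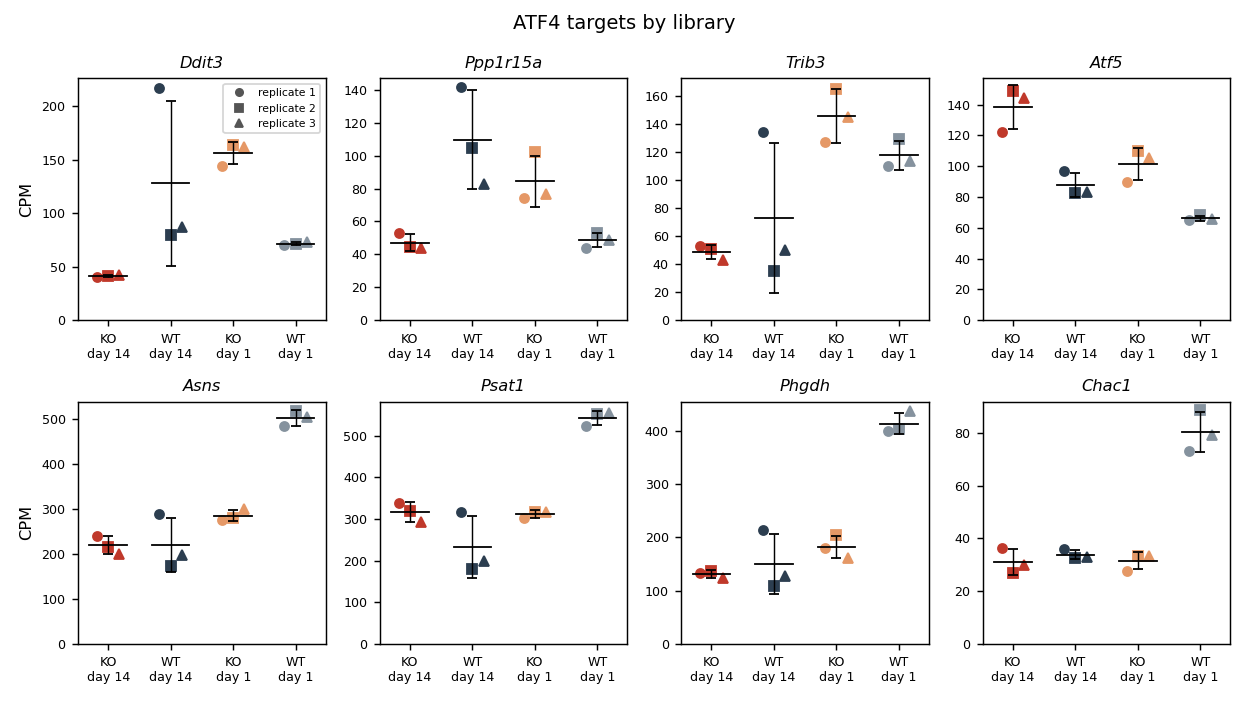
CPM of 8 ATF4 targets in each library, by group, with the group mean and SD (n = 3) in black and a symbol shape for each replicate number. Replicate 1 of WT at day 14 is the highest of its group in every panel, and Asns, Psat1, Phgdh and Chac1 are highest in WT at day 1.

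The enzymes among the ATF4 targets were lower in KO at day 1, all 5 of 5, while the 4 regulators Ddit3, Ppp1r15a, Atf5 and Trib3 were higher. This division of the targets was made after their values were seen. Asns, which makes asparagine, had a day 14 mean of 218 ± 19.9 CPM in KO against 219 ± 60.8 CPM in WT (SD, n = 3), with WT replicate 1 the highest at 288 CPM. It stood at 276, 280 and 299 CPM in KO and 483, 518 and 503 CPM in WT at day 1. WT at day 1 was above all other libraries, and the groups of day 14 overlapped. Asns fell by 0.81 ± 0.06 in KO at day 1 (adjusted p = 5.71e-08). At day 14 it stood at -0.02 ± 0.17 (adjusted p = 0.951), and without WT replicate 1 it was called higher (0.21, adjusted p = 0.0380).

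Psat1 and Phgdh are enzymes of serine synthesis. Psat1 stood at 339, 319 and 292 CPM in KO and 318, 179.7 and 200.1 CPM in WT at day 14, and at 302, 317 and 317 CPM in KO and 524, 553 and 555 CPM in WT at day 1. Phgdh stood at 133, 137 and 124 CPM in KO and 214, 108 and 128 CPM in WT at day 14, and at 180.3, 204 and 162 CPM in KO and 400, 404 and 437 CPM in WT at day 1. For both, WT at day 1 was the highest group and WT replicate 1 at day 14 lay above the other WT libraries of that day. At day 1 Psat1 fell by 0.79 ± 0.05 (adjusted p = 4.29e-08) and Phgdh by 1.18 ± 0.08 (adjusted p = 3.41e-08). At day 14 Psat1 stood at 0.43 ± 0.19 (adjusted p = 0.0929) and passed without WT replicate 1 (0.71, adjusted p = 6.06e-07). It also passed with no filter (0.44, adjusted p = 4.23e-04) and in the fit of 12 libraries (0.44, adjusted p = 0.022). Phgdh stood at -0.20 ± 0.22 at day 14 (adjusted p = 0.474), and at 0.12 without WT replicate 1 (adjusted p = 0.200).

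Chac1, which breaks down glutathione, stood at 36.4, 26.7 and 29.9 CPM in KO and 35.9, 32.7 and 33.0 CPM in WT at day 14, and at 27.8, 33.4 and 33.3 CPM in KO and 73.4, 88.6 and 79.1 CPM in WT at day 1. It was high in WT at day 1 and between 26.7 and 36.4 CPM in the 9 other libraries. The fall of 1.34 ± 0.09 at day 1 (adjusted p = 4.86e-08) was the largest fall among the members on that day. Aars, the alanyl-tRNA synthetase, stood at 328, 334 and 306 CPM in KO and 499, 275 and 283 CPM in WT at day 14, and at 388, 468 and 368 CPM in KO and 464, 500 and 487 CPM in WT at day 1. Its groups overlapped on both days. It fell by 0.24 ± 0.08 at day 1 (adjusted p = 0.0201), a call lost without KO replicate 1 (0.0917) or WT replicate 2 (0.0747) or 3 (0.0569), and with library size alone (0.259). At day 14 it stood at -0.14 ± 0.21 (adjusted p = 0.612), and without WT replicate 1 it was called higher (0.18, adjusted p = 0.0288).

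Set beside each other, the endoplasmic reticulum branch had 8 of 18 members higher and 1 lower in KO at day 14 (median log2 fold change 0.21, and 0.09 without WT replicate 1), and 6 higher and 4 lower at day 1 (median 0.07). Of all genes, 46.4% were called at day 14 (22.7% higher, 23.7% lower) and 60.8% at day 1 (30.6% higher, 30.2% lower). The day 1 median of the branch was 0.0040 without KO replicate 3 and 0.14 without KO replicate 2, and that of the ATF4 targets (-0.24) was -0.11 with library size alone. In the libraries themselves, the branch had a median of 0.12, 0.19 and 0.19 in KO and -0.14, -0.14 and -0.07 in WT at day 14 (log2 CPM minus each gene's mean over 12 libraries). At day 1 it was -0.07, -0.14 and 0.07 in KO and -0.07, -0.05 and -0.06 in WT. The ATF4 targets, on the same scale, were at -0.25, -0.50 and -0.51 in KO and 0.15, -0.47 and -0.44 in WT at day 14, and at -0.05, 0.21 and 0.07 in KO and 0.38, 0.61 and 0.42 in WT at day 1. The endoplasmic reticulum branch was highest in KO at day 14 and the ATF4 targets in WT at day 1, while WT replicate 1 of day 14 lay among the KO libraries of day 1 on the ATF4 scale. The parts of the endoplasmic reticulum branch differed. Its 14 folding genes were highest in KO at day 14 (0.25, 0.22 and 0.24). Its 4 degradation factors stood at -0.12, -0.12 and -0.10 there and were highest in WT at day 1 (0.32, 0.39 and 0.36). These medians describe the lists and were not tested.

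**Figure D5:**
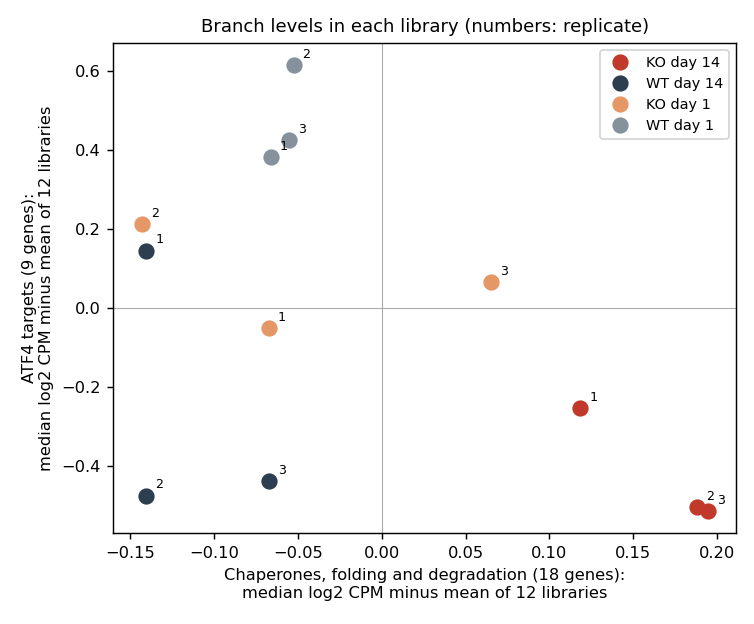
Median level of the 18 folding and degradation genes (horizontal) and of the 9 ATF4 targets (vertical) in each library, both as log2 CPM minus the gene's mean over 12 libraries, with the replicate number beside each point. KO at day 14 lies at the lower right, WT at day 1 at the top, and WT replicate 1 of day 14 stands above the other libraries of its group.

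Between the days, 10 members were higher and 12 lower at day 14 in KO, against 54.8% of all genes called (26.9% higher, 27.9% lower). In WT, 8 were higher and 11 lower, against 51.9% (25.8% higher, 26.1% lower). With library size alone 62.7% of all calls in WT were higher, against 49.7%, and 10 members were higher and 10 lower. These contrasts share libraries with those above.

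In KO, Ddit3 (-1.93 ± 0.27, adjusted p = 2.52e-05), Trib3 (-1.58 ± 0.33, adjusted p = 8.84e-04) and Ppp1r15a (-0.84 ± 0.17, adjusted p = 6.77e-04) were lower at day 14 than at day 1. Of the 14 folding genes 7 were higher, with the largest rises in Calr (1.21 ± 0.08), Dnajb11 (1.04 ± 0.08) and Pdia3 (0.89 ± 0.09), at adjusted p from 5.77e-09 to 5.25e-07. The 4 lower were Hspa5 (-0.75 ± 0.10, adjusted p = 1.16e-05), Dnajb9 (-0.51 ± 0.10, adjusted p = 6.80e-04), Manf (-0.44 ± 0.11, adjusted p = 0.00414) and Canx (-0.25 ± 0.07, adjusted p = 0.00723). Of the endoplasmic reticulum branch, 9 were higher and 5 lower (median 0.27), and Psat1 and Chac1 stood at 0.02 ± 0.15 and -0.02 ± 0.12 with no call.

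In WT, Ddit3 and Ppp1r15a had the reverse direction. Ppp1r15a (1.17 ± 0.17, adjusted p = 3.65e-05) and Ddit3 (0.85 ± 0.26, adjusted p = 0.0132) were higher at day 14, at 0.95 and 0.24 without WT replicate 1. Phgdh (-1.46 ± 0.18), Chac1 (-1.25 ± 0.12), Psat1 (-1.22 ± 0.15), Asns (-1.19 ± 0.14) and Herpud1 (-0.94 ± 0.10) were lower, with adjusted p from 4.58e-07 to 8.27e-06. All 5 enzymes of the ATF4 targets, the group set apart after the values were seen, were lower at day 14 in WT. Aars stood at -0.46 ± 0.17 (adjusted p = 0.0367), a call lost without any 1 of 9 libraries (0.0506 to 0.170). The median of the 9 ATF4 targets was -0.68 in WT, and -1.28 without WT replicate 1. Without that library Trib3 (-1.44, adjusted p = 1.83e-08) and Atf4 (-0.445, adjusted p = 1.12e-04) were called lower. Pdia3 was then called higher (0.23, adjusted p = 0.0122), and Aars stood at -0.78.

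KO at day 1 and WT at day 14 differed in 4 of the 32 members, against 9.78% of 15973 genes (3.89% higher, 5.89% lower). Hspa5 (0.54 ± 0.10, adjusted p = 0.00409), Edem1 (0.37 ± 0.07, adjusted p = 0.00617) and Manf (0.45 ± 0.11, adjusted p = 0.0242) were higher and Calr (-0.34 ± 0.08, adjusted p = 0.0135) lower in KO at day 1. Manf was lost without WT replicate 2 (0.104) or 3 (0.0655) or KO replicate 1 (0.0672) or 3 (0.116), and Calr without WT replicate 2 (0.0511) or 3 (0.0626). None of the 9 ATF4 targets was called with all libraries by edgeR with its filter or by DESeq2, and at an unadjusted p below 0.05 edgeR gave 4 higher and 1 lower. Trib3 was called higher by limma-voom (adjusted p = 0.0251), with the replicate block (0.0496) and with no filter (0.00659), and Asns (0.0432) and Psat1 (0.0312) with no filter. Without WT replicate 1, 7 were called higher in KO at day 1, and 21 members in all (16 higher, 5 lower) and 33.7% of all genes were called. With that library left out Trib3 stood at 1.77 (adjusted p = 1.38e-08), Ddit3 at 0.91 (adjusted p = 2.86e-08) and Atf4 at 0.22 (adjusted p = 0.0444, and -0.05 with no call when it was kept). KO at day 14 and WT at day 1 differed in 26 members, 10 higher and 16 lower in KO, against 50.7% of all genes (24.6% higher, 26.1% lower). All 5 sensors and transcription factors and 7 of the 9 ATF4 targets were lower there in KO. Leaving out 1 library, 12 to 16 members were lower. Atf4 was lost without KO replicate 2 (0.0867) or 3 (0.101) or WT replicate 2 (0.0686) or 3 (0.0553), and Eif2ak3 without KO replicate 2 (0.0516). Ddit3 was lost without KO replicate 1 (0.0674), 2 (0.0608) or 3 (0.0550) or WT replicate 3 (0.0524).

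Other genes of the pathway, 88 on 4 lists, were read in the same fits. The shares of all genes called in KO against WT there were 46.4% at day 14 (22.7% higher, 23.7% lower) and 60.8% at day 1 (30.6% higher, 30.2% lower). Of 35 tested further targets of ATF6 and XBP1, 19 were higher and 4 lower in KO at day 14 (median log2 fold change 0.33), and 7 were higher and 19 lower at day 1 (median -0.21). The rises at day 14 were led by Fkbp14, a collagen-folding isomerase (1.57 ± 0.12), P4hb, the disulphide isomerase PDI (1.28 ± 0.08), and Ero1l, the oxidase that recharges it (1.16 ± 0.19), with adjusted p from 7.60e-06 to 0.00121. At day 1 Ero1l fell by 2.05 ± 0.06 (adjusted p = 2.48e-11). Wfs1, a membrane protein of the endoplasmic reticulum, fell by 1.39 ± 0.09 at day 14 (adjusted p = 8.40e-06) and rose by 1.46 ± 0.08 at day 1 (adjusted p = 9.84e-09).

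Of 27 tested further genes of ATF4 and the integrated stress response, 6 were higher and 7 lower in KO at day 14, and of 28 at day 1, 5 were higher and 21 lower (median -0.40). Atf3, a stress-induced transcription factor, fell by 2.04 ± 0.22 at day 14 (adjusted p = 1.22e-04) and rose by 0.87 ± 0.12 at day 1 (adjusted p = 4.17e-05), the directions of Ddit3 and Ppp1r15a. The cystine transporter Slc7a11 rose at day 14 (1.21 ± 0.12), and Gdf15, a secreted stress cytokine (-1.08 ± 0.14), and Eif4ebp1, a repressor of translation (-0.86 ± 0.13), fell, with adjusted p from 6.60e-05 to 8.68e-04. At day 1 the transcription factor Cebpb rose (1.51 ± 0.12), and Cth, which makes cysteine (-2.22 ± 0.09), and Aldh1l2, of mitochondrial folate metabolism (-1.80 ± 0.06), fell, with adjusted p from 1.14e-10 to 2.00e-07. Fgf21, a secreted hormone induced by ATF4, had 3 counts in the KO libraries and 320 in the WT libraries of day 1, a 78.0-fold lower level in KO (95% counting interval 26.4 to 380.0, counting error only). Of 12 tRNA synthetases besides Aars, 11 were lower and the other not called in KO at day 1 (median -0.54), and 2 were lower and 1 higher at day 14 (median -0.03). In WT all 12 were lower at day 14 than at day 1 (median -0.55), against 26.1% of all genes.

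Of 11 tested eIF2 kinases, phosphatase subunits and OASIS factors, 5 were higher and 2 lower in KO at day 14, and 4 were higher and 4 lower at day 1. Creb3, a membrane-bound factor of the OASIS family, rose by 0.80 ± 0.07 at day 1 (adjusted p = 9.81e-07). The KO effect on the 86 genes of the 4 lists tested in the fit of 12 libraries was higher at day 14 than at day 1 for 48 and lower for 16 (median 0.60, against -0.01 for all genes). Of all genes, 60.1% were called in that contrast, 29.5% higher and 30.5% lower. P4hb (2.36 ± 0.09), Ero1l (3.23 ± 0.22), Cth (3.20 ± 0.26) and Aldh1l2 (2.48 ± 0.39) had the largest such differences upwards under the naming rule, and Atf3 (-2.89 ± 0.27) and Wfs1 (-2.83 ± 0.13) downwards, with adjusted p from 2.68e-11 to 6.45e-05.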

How the data were processed

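Raw read counts per gene name, whole numbers in 1 table for each day, were used as the authors deposited them. The submitters' processing notes name the build mm9; for the aligner, the counter, its annotation and its strand setting, what was used is not given in these sources. Genes that overlap or are nearly identical may therefore share reads. Per the labels' protocols, total RNA was made into libraries with the NEBNext Ultra kit. The table columns carry a genotype, with CTR read as WT, and a replicate number. The tables held 28494 (day 1) and 30866 (day 14) lines; 43 and 53 exact repeats were removed, and 2 names with differing counts were left out of each.

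Counts were tested with edgeR 4.0.16 in R 4.3.3 (TMM, filterByExpr, quasi-likelihood F test, Benjamini-Hochberg over all genes tested, adjusted p below 0.05). Each day used the 6 libraries of its table. The difference of KO effects and the contrasts between days came from 1 fit of 12 libraries over shared names. A standard error is the absolute log2 fold change divided by the root of its F statistic. Printed CPM come from the fit of 12 libraries. The test was also run on simulated counts with known changes, drawn with the same spread for every gene and no library standing apart. That run cannot show how the test fares with a library such as WT replicate 1 of day 14.

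The members and lists were chosen with earlier results of these data known. All members may be named. Of the other pathway lists, up to 4 called genes with the largest change in each direction and comparison are named, at a mean log2 CPM of at least 1, with some of those the rule takes left out for length. Alternatives were DESeq2 1.42.0, limma-voom (limma 3.58.1), scaling by size factors as in DESeq2 or by library size alone, genes unfiltered or kept at 1 CPM in at least 3 libraries, a block for the replicate number, 12 libraries in the fits of 1 day, and leaving out each library. Promoters are RefSeq's (GRCm38.p6), 250 bases before to 50 after the start.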

Additional observations from a re-analysis of the deposited data

Results flagged for a closer look

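The KO effect (KO over WT) differed between day 14 and day 1 for 19 of the 32 members by the test of the difference itself (edgeR, 12 libraries, adjusted p below 0.05), against 60.1% of all genes tested. Values are log2, day 14 minus day 1. For 5 members the KO effect was lower at day 14: Ddit3 (-2.77), Ppp1r15a (-2.01), Hspa5 (-1.05), Dnajb9 (-0.45) and Canx (-0.30).

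For 14 members it was higher at day 14. Among the sensors these were Atf6 (0.80), Eif2ak3 (0.49) and Ern1 (0.44). Among the folding genes they were Dnajb11 (1.17), Calr (0.93), Pdia3 (0.74) and Dnajc3 (0.34), and among the degradation factors Herpud1 (0.92), Sel1l (0.87) and Syvn1 (0.45). The ATF4 target enzymes Psat1 (1.25), Chac1 (1.22), Phgdh (0.99) and Asns (0.81) complete the list.

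Ddit3, Ppp1r15a, Dnajb11 and Sel1l were called in opposite directions on the 2 days. Ddit3 is the member with the largest difference, and its value was -2.18 without WT replicate 1 of day 14. With that library left out Atf4 (0.26, adjusted p = 0.044) and Aars (0.43, adjusted p = 0.00205) were called higher and Xbp1 (-0.39, adjusted p = 0.00201) lower. Syvn1 had an adjusted p of 0.0392, and its call was lost in 9 of the 12 fits that left out 1 library (0.0634 to 0.129). The calls of Eif2ak3 and Dnajc3 were lost without KO replicate 3 of day 14 (adjusted p = 0.0564 and 0.0561). With library size alone, Ern1, Eif2ak3, Dnajc3 and Syvn1 were lost (adjusted p from 0.127 to 0.299), and with no filter Canx was (-0.27, adjusted p = 0.0684).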

How the results depend on the processing

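Over the alternatives, most values of members, called or not, kept their side of the threshold, and the calls among them kept their direction. These were 425 of the values for day 14, with 9 newly past the threshold, 12 lost and 2 reversed. For day 1 they were 410 (12, 26 and 0), and for the difference of KO effects 576 (15, 17 and 0). Reversed means that the sign turned and either fit gave a call. Reversed without WT replicate 1 of day 14 were Asns (0.21) and Aars (0.18) at day 14 and Atf4 (0.22) in KO at day 1 against WT at day 14. None of these was called with all libraries (Asns -0.02, Aars -0.14 and Atf4 -0.05). Over the libraries left out these 3 ranged from -0.16 to 0.21, -0.29 to 0.18 and -0.17 to 0.22. The cause was not tested.

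With library size alone, the median of the endoplasmic reticulum branch was 0.14 at day 14, 0.20 at day 1, 0.048 for the difference of effects (10 members lower) and 0.088 between days in WT. That scaling moves the median of all genes to 0.14 at day 1, -0.22 for the difference and 0.13 between days in WT. For the difference it turns the median of the 9 ATF4 targets from 0.12 to -0.096, and leaving out 1 library it ranged from -0.020 to 0.43 (highest without WT replicate 1 of day 14). Leaving out each library, members lower at day 14 ranged from 2 to 4 and the branch median from 0.086 to 0.30. Members higher at day 1 ranged from 6 to 14. Between days the branch median ranged from 0.16 to 0.30 in KO and from -0.078 to 0.012 in WT, and the ATF4 median in WT from -1.28 to -0.34. For KO at day 1 against WT at day 14, members called ranged from 2 to 21 (higher 2 to 16, lower 0 to 5) and all genes called from 576 to 5538; DESeq2 called 8 members (4 lower) and no filter 7 (6 higher).

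The replicate numbers pair samples by number alone: over 12 same-numbered pairs the correlation of deviations ran from -0.07 to 0.13. With the replicate number as a block, Psat1 passed at day 14 (0.48, adjusted p = 0.0253), Manf at day 1 (0.23, adjusted p = 0.0383) and Trib3 in KO at day 1 against WT at day 14 (1.10, adjusted p = 0.0496), and Pdia4 passed for the difference of effects and Dnajc3 between days in KO. Counts were lowest for Sdf2l1 (132 in 1 library of day 14), where counting error is largest among the members.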
